A study of Homo sapiens and Mus musculus with 6 samples.

Results

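The ZNF genes of chromosome 19 were followed in the Promoter Capture Hi-C (CHi-C) contacts of GM12878. Members were taken as calls whose bait lies on chromosome 19 and carries a gene symbol made of ZNF and digits. They numbered 448 calls from 118 baits, out of 92929 calls from 15389 baits in the whole GM12878 list, and were set beside the 3940 calls of the other 721 chromosome 19 baits. GM12878 is a human lymphoblastoid cell line, that is, B cells immortalised by Epstein-Barr virus, and 3 biological replicates of this single line were used. In CHi-C, the DNA of fixed nuclei is cut with HindIII, ends that lie near each other are ligated, and fragments that carry promoters, the baits, are pulled down. The fragment found joined to a bait is its other end. Of the 118 ZNF baits, 49 also carry another symbol, so their calls cannot be told apart from those of the other gene. The 3 replicates were called together, so a single set of calls exists with no value per replicate, and no test between groups of baits could be made.

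Each call has a read count, which is the rounded mean over the replicates after weighting, and a CHiCAGO score. The score grows as the read count exceeds what the distance and the general yield of both fragments predict, and every listed call scores at least 5. All intervals given are 95% intervals that cover counting error only.

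Most ZNF genes encode proteins with an array of C2H2 zinc fingers that binds DNA, and many carry a KRAB domain that recruits the corepressor TRIM28 (KAP1). KRAB zinc finger proteins are best known for silencing transposable elements through histone H3 lysine 9 methylation. The genes arose by repeated tandem duplication, and chromosome 19 holds many of their clusters. The bodies of many of these genes, above all the long exon that encodes the zinc finger array, are known to carry repressive marks in many cell types while the promoters stay accessible.

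The promoters shown first are those on which the contact results turn: ZNF329 and ZNF350, which the most ZNF baits reached, ZNF433 and ZNF20, which made the most calls and the highest scoring call to another ZNF promoter, and ZNF324, the bait with the most calls of the most distal cluster. Each line holds the 250 bases before the transcription start as RefSeq places it in GRCh38.p14, read 5′ to 3′ along the gene. The coordinates are of hg19, where each of them was found without a mismatch inside the baited fragment that bears the gene's name. Capitals mark matches to 6 motifs, searched on both strands. The letters searched were CCGGAAG for the ETS family of factors and GCGCATGCG for the activator NRF1. They were AAGATGGCG for YY1, a factor of many promoters that are active in all cells, and GGGCGG for SP1, the classical activator of GC-rich promoters. The last were AGGGGGC, a part of the site of the architectural factor CTCF, and TATAAA, the core of the TATA box. The CTCF and SP1 letters can overlap.
ZNF329, chr19:58662157-58662406, minus strand: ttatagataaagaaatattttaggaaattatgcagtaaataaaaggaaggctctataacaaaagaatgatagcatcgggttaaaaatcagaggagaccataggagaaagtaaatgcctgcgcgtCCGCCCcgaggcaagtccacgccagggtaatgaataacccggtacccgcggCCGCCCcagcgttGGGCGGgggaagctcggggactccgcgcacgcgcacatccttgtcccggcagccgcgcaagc
ZNF350, chr19:52490094-52490343, minus strand: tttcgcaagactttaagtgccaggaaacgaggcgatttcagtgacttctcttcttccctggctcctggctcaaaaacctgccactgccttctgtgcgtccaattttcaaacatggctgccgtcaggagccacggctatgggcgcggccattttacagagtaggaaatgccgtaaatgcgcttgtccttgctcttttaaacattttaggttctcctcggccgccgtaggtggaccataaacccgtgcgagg
ZNF433, chr19:12146495-12146744, minus strand: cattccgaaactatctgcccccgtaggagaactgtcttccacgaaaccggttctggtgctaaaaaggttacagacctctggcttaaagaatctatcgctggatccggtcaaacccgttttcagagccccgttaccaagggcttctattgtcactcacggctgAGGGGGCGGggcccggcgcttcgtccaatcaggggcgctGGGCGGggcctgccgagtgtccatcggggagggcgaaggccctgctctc
ZNF20, chr19:12251166-12251415, minus strand: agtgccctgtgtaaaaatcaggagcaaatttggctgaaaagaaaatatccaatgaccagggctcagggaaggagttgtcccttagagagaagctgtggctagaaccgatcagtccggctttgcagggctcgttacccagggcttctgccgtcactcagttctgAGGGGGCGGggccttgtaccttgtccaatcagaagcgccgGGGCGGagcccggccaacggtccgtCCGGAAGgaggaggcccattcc
ZNF324, chr19:58978197-58978446, plus strand: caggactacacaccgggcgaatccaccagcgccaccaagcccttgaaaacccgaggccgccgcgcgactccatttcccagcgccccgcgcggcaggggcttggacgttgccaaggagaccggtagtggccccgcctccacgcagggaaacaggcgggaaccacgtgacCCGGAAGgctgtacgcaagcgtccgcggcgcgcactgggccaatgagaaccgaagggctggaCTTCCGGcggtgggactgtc
The ZNF20 and ZNF433 windows shared a run of 16 bases, which holds the overlapping CTCF and SP1 matches, while ZNF329 and ZNF350 shared at most 8 bases. ZNF329 held SP1 letters only, and none of the 6 motifs was matched in this stretch of ZNF350. ZNF324 held the ETS letters once on each strand.

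The RefSeq table gave 165 promoter windows, from 250 bases before to 50 after a start, for 129 of the 147 coding ZNF genes named on listed chromosome 19 fragments. The ETS letters stood in 47 of these windows, 28.5% (22.1 to 35.8%), against 10.3% of all 35116 promoter windows in the table and 13.0% of the 1610 windows of other chromosome 19 genes. The TATA letters stood in 3 windows, 1.82%, against 11.5% of all windows and 7.39% of the other chromosome 19 windows. SP1 letters were found in 61.8% of ZNF windows, which is close to the 61.3% of other chromosome 19 windows and above the 45.0% of all. The CTCF letters were in 16.4%, against 14.4% of all windows and 21.1% of the other chromosome 19 windows. Against the rest of the chromosome, the ZNF windows thus lay farthest apart in the ETS and TATA letters, and several windows can belong to 1 gene. NRF1 letters were in 4.85% (2.48 to 9.27%), against 1.92% of all windows and 3.60% of the other chromosome 19 windows. YY1 letters were in 4.24% (2.07 to 8.50%), against 1.75% and 3.04%, so for both factors the other genes of the chromosome lay inside the interval of the ZNF windows.

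The 118 ZNF baits each carried between 1 and 20 calls, with a median of 3. The mean was 3.80 calls per bait (3.45 to 4.17), against 5.46 (5.30 to 5.64) for all other chromosome 19 baits, whose median was 4. Only baits with at least 1 call enter these figures. The lower mean was shared by neighbours of the ZNF genes. The 47 other baits that lie inside the spans of ZNF clusters had 3.85 calls per bait (3.31 to 4.45), whereas the 674 other baits elsewhere on the chromosome had 5.58 (5.40 to 5.76). The 47 include zinc finger genes that the naming rule leaves out, such as ZFP14, ZFP82, ZFP30, ZFP28, ZIK1, ZSCAN1 and ZSCAN22. In this and later comparisons the group is therefore not one of unrelated genes alone. A single call was all that 30 ZNF baits had, 25.4%, and 21.1% of the baits elsewhere were in the same position. ZNF baits on other chromosomes, 169 in number, had 6.5 calls per bait with the same median of 3.

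**Figure D1:**
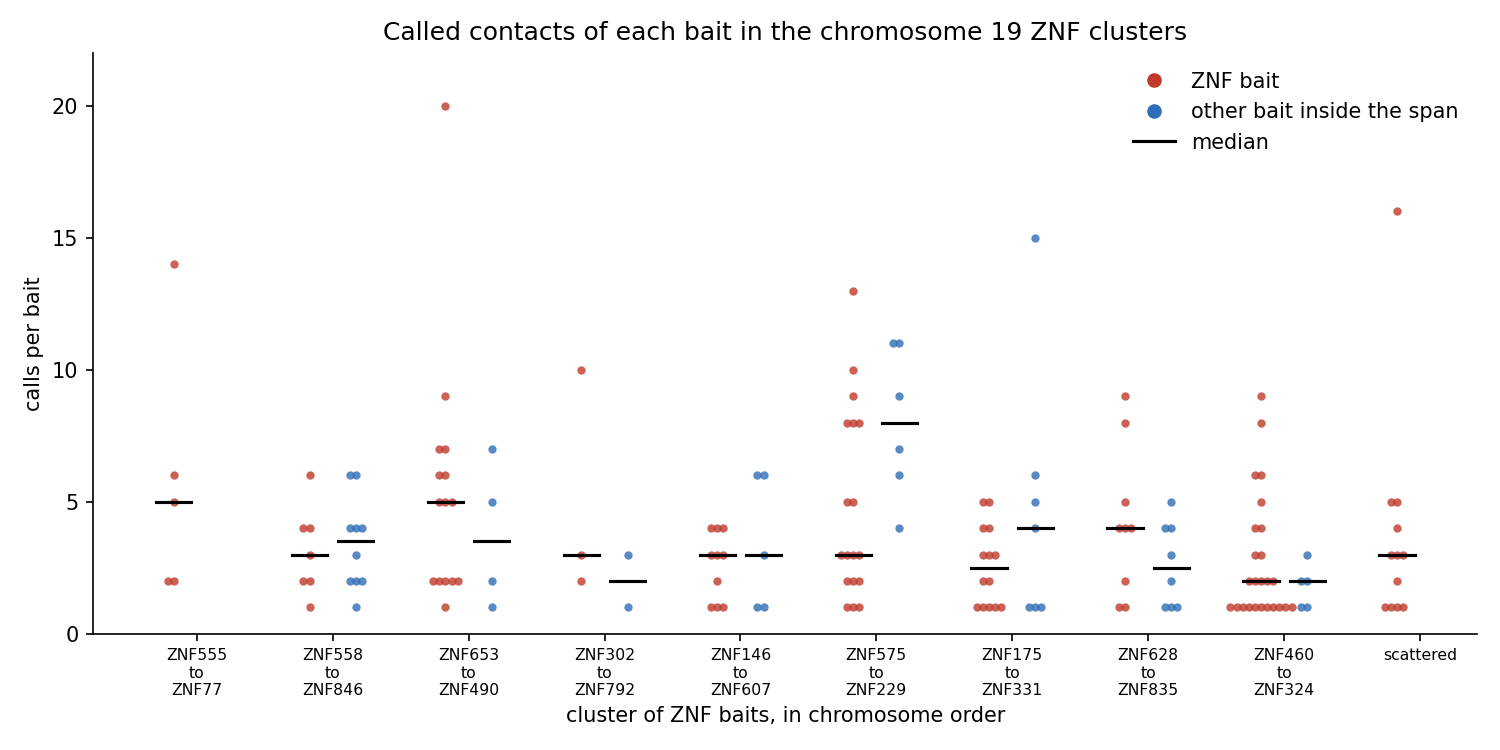
Calls per bait (vertical axis) for each ZNF bait (red) and each other bait inside the same span (blue), by cluster in chromosome order and for scattered ZNF baits, with medians as black bars. Most ZNF baits lie under 10 calls in every column, and ZNF433 stands apart at 20.

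The calls of ZNF baits reached far. Their median distance was 225 kb (203 to 244 kb), against 165 kb (134 to 194 kb) for the other baits inside the cluster spans and 132 kb (127 to 136 kb) for baits elsewhere on the chromosome. Of the 448 ZNF calls, 63 spanned 500 to 1000 kb, 14.1%, and 9 spanned over 1 Mb, 2.01%. The other baits inside the spans had 9.94% (6.38 to 15.2%) and 1.10% of their calls in these classes, and the interval overlaps that of the ZNF baits (11.1 to 17.6% at 500 to 1000 kb). ZNF baits on other chromosomes had 6.82% and 1.27%, and baits elsewhere on chromosome 19 had 1.78% and 0.266%. Contacts under 100 kb were the counterpart, at 23.4% of ZNF calls, 30.4% of the calls of other baits inside the spans and 38.7% of calls elsewhere. None of the 448 ZNF calls joined another chromosome, which allows a share of up to 0.670%, and neither did any of the 3940 calls of the other chromosome 19 baits. ZNF calls also rested on fewer reads, with a median of 12 against 19 elsewhere, while the median scores were 6.66 and 6.75. ZNF baits were shorter and less GC-rich than baits elsewhere, with medians of 7360.5 bp and 46.9% GC against 11053.5 bp and 53.9%. The other baits inside the spans lay between in length, at 9278 bp, and matched the ZNF baits in GC, at 46.7%. The part of length, GC and yield of the baits in these differences was not tested.

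**Figure D2:**
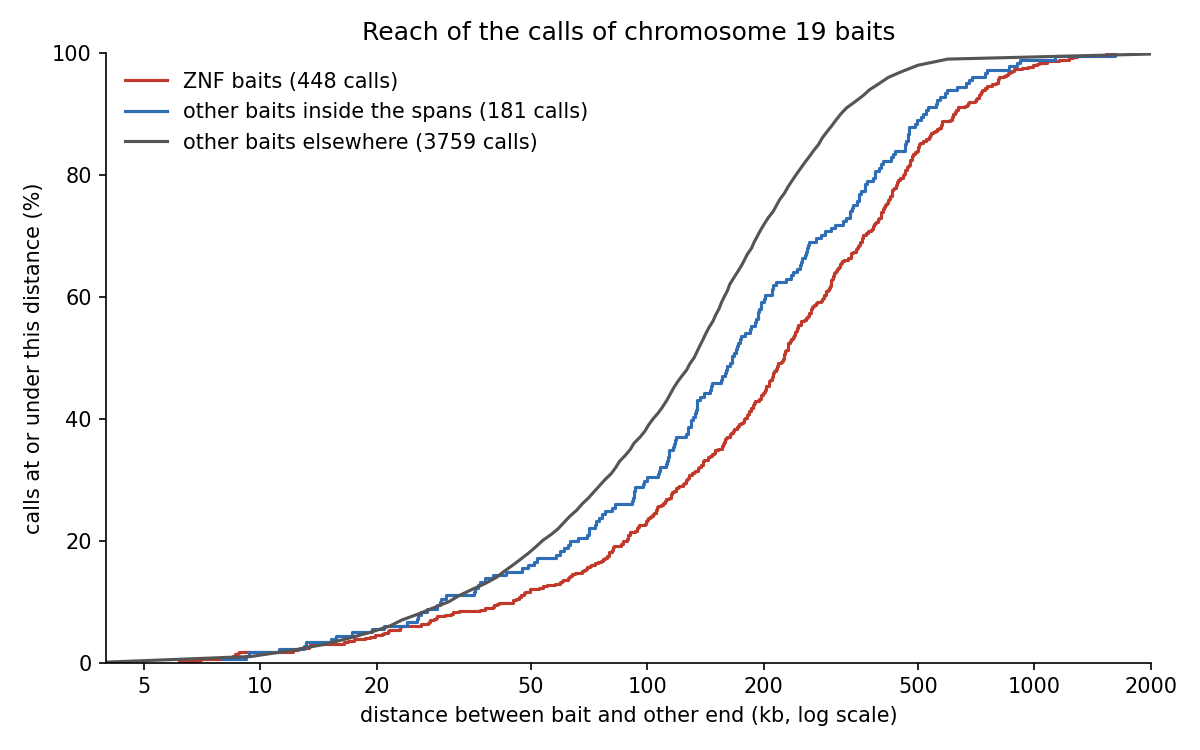
Cumulative share of calls (vertical axis, %) against the distance between bait and other end (horizontal axis, kb, log scale) for ZNF baits, other baits inside the spans and other baits elsewhere on chromosome 19. The ZNF curve lies to the right, with its median at 225 kb against 165 and 132 kb.

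ZNF promoters were a main target of ZNF baits. Of the 448 calls, 157 ended on a baited fragment with a ZNF symbol, 35.0% (30.8 to 39.6%), 136 on another promoter, 30.4%, and 155 on a fragment that carries no bait, 34.6%. Other baits inside the cluster spans sent 24.3% (18.6 to 31.1%) of their 181 calls to ZNF promoters, and this interval narrowly overlaps that of the ZNF baits. Baits elsewhere sent 20 of 3759, 0.532%. ZNF baits on other chromosomes sent 60 of 1099 calls to a ZNF promoter, 5.46%. These shares were not adjusted for the number of ZNF promoters within reach of a bait. Calls from ZNF baits to ZNF promoters had a median distance of 240 kb, 11 reads and a score of 7.36. Those to other promoters also had a median of 11 reads. Those to unbaited fragments had a median of 14 reads but a score of 5.82, and 5 of the 155 scored 10 or more, 3.23%. Scores of 10 or more went with promoter targets of either kind, at 28 of the 157 calls to ZNF promoters, 17.8%, and 27 of the 136 to other promoters, 19.9%.

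ZNF baits with several calls often reached promoters alone. Among the 65 ZNF baits with at least 3 calls, 39 called only promoters, 60.0% (47.9 to 71.0%), 9 called only unbaited fragments and 17 called both. Among the 460 such baits of the rest of the chromosome, 142 called only promoters, 30.9% (26.8 to 35.2%). The other baits inside the spans were not counted apart here. A bait with more calls has more chances to reach an unbaited fragment, and the means over all baits were 3.80 and 5.46 calls. The 39 promoter-only ZNF baits had a median of 10 reads per call and the 9 baits with only unbaited targets had 15. A promoter pair can be pulled down from both of its ends and an unbaited fragment from a single end. The part of the number of calls and of this difference in pull-down in the shares of targets was not tested.

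ZNF283 and ZNF234, both in the cluster that runs from ZNF575 to ZNF229, show the contrast. All 13 calls of the ZNF283 bait, which also holds the LYPD5 promoter, ended on promoters, with 5 to 19 reads. Of these, 10 were ZNF promoters between ZNF576, 240 kb to one side, and ZNF180, 671 kb to the other. The highest scores went to IRGC, at 20.84 with 19 reads, and PLAUR, the urokinase receptor gene, at 18.35 with 14 reads. ZNF234 made 9 calls with 10 to 30 reads, all to unbaited fragments, and 4 of these 9 lay together 293 to 310.0 kb away within the ZNF283 gene. ZNF283 in turn called the ZNF234 promoter with 8 reads and a score of 12.25.

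The ZNF baits fell into 9 clusters of at least 3 baits, in which neighbours lie within 500 kb, and these held 106 of the 118 baits. The clusters are named here by their first and last bait. Their spans in hg19 ran from chr19:2833990-2947212 for ZNF555 to ZNF77, near the end of the short arm, to chr19:57786719-58980305 for ZNF460 to ZNF324, near the end of the long arm. Calls between ZNF promoters lay almost wholly within these clusters, which the 500 kb rule and the reach of calls largely set. At 200 to 500 kb, all 374 pairs of listed ZNF fragments were pairs of a cluster. At 1000 to 5000 kb, 109 of 1221 were, but there just 13 of 60966 promoter pairs of the chromosome were called. Of the 157 calls, 155 joined fragments of the same cluster, and 32 of them, 20.6%, went to the next listed ZNF fragment. A median of 3 ZNF fragments were skipped and 24 calls skipped 10 or more. The share of next neighbours among all ZNF pairs of a cluster was not counted. No preference for near or skipped fragments can therefore be read from these counts.

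The exceptions were named one by one. The bait that ZNF582 and ZNF583 share, in the ZNF628 to ZNF835 cluster, called ZNF606 in the ZNF460 to ZNF324 cluster, 1615 kb away, with 6 reads and a score of 9.77. The scattered bait of ZNF85 made its only call to ZNF714, 160 kb away, with 7 reads and a score of 5.02. Over 5 Mb, 0 of 7864 ZNF pairs of listed fragments were called, as were 0 of all 337625 pairs of listed chromosome 19 fragments.

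To take distance into account, every pair of listed baited fragments was counted as a possible pair and asked whether it was called. Under 1 Mb, 9.65% of all possible pairs on chromosome 19 were called, and 146 of 1013 ZNF pairs of the same cluster, 14.4% (12.4 to 16.7%). Within the same spans, pairs of other promoters gave 24 of 148, 16.2% (11.1 to 23.0%). Pairs of a ZNF and another promoter of a span gave 90 of 734, 12.3% (10.1 to 14.8%). Both intervals overlap that of the ZNF pairs, so the higher share was not shown to be particular to ZNF pairs. The order of ZNF pairs and other pairs of the chromosome changed with distance. At 50 to 100 kb, 12 of 87 ZNF pairs of a cluster were called, 13.8% (8.07 to 22.6%), against 32.8% (29.8 to 36.0%) of pairs between other promoters of the chromosome. At 100 to 200 kb the shares were 18.7% and 26.6%, and at 200 to 500 kb they were 14.7% (11.5 to 18.7%) and 9.96% (9.12 to 10.9%). Where both fragments had calls of their own, the intervals at 200 to 500 kb overlapped, at 13.7% (10.1 to 18.4%) and 10.7% (9.74 to 11.6%). Pairs of a ZNF and another promoter of the same span gave 10.6% (7.66 to 14.5%) at this distance. At 500 to 1000 kb, 28 of 311 ZNF pairs were called, 9.0% (6.30 to 12.7%), against 52 of 6532 other pairs, 0.796% (0.608 to 1.04%). The share of ZNF pairs thus lay below that of other pairs at 50 to 100 kb and above it at 500 to 1000 kb, with intervals that do not overlap in either class. At 0 to 50 and 100 to 200 kb the intervals overlapped. Where both fragments had calls of their own, they did not overlap at 0 to 50 kb. There, 12 of 66 ZNF pairs were called, 18.2% (10.7 to 29.1%), against 34.4% (30.7 to 38.4%) of other pairs. All listed pairs of a ZNF and another promoter of the same span gave 25% (13.8 to 41.1%) at 0 to 50 kb, which overlaps the ZNF interval. At 50 to 100 kb the interval of the ZNF pairs also overlapped those of other pairs in the same spans, whose shares were 19.6% (10.7 to 33.2%) for a ZNF and another promoter and 5 of 26, 19.2% (8.51 to 37.9%), for pairs of other promoters.

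The far contacts rested in part on the ZNF329 fragment. Without it, 17 of 298 ZNF pairs at 500 to 1000 kb were called, 5.70% (3.59 to 8.94%). Pairs in which both fragments had calls of their own gave 9 of 202, 4.46% (2.36 to 8.25%), against 0.814% of such pairs between other promoters. Among the clusters, the shares at this distance ran from 0 of 7 pairs in ZNF558 to ZNF846 and 0 of 25 in ZNF628 to ZNF835 up to 6 of 33 in ZNF175 to ZNF331, 18.2%. Pairs of a ZNF promoter and another promoter of the same span gave 6.09% (3.66 to 9.96%) at 500 to 1000 kb. This interval overlaps that of the ZNF pairs, both with ZNF329 (6.30 to 12.7%) and without it. The high share at this range was thus not shown to be particular to ZNF pairs. Pairs between other promoters of a span gave 0 of 21, too few to set a level. Reads were low at this range, with a median of 8 and 5 to 18 reads for the ZNF calls, and 6 with 3 to 12 for calls between other promoters.

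**Figure D3:**
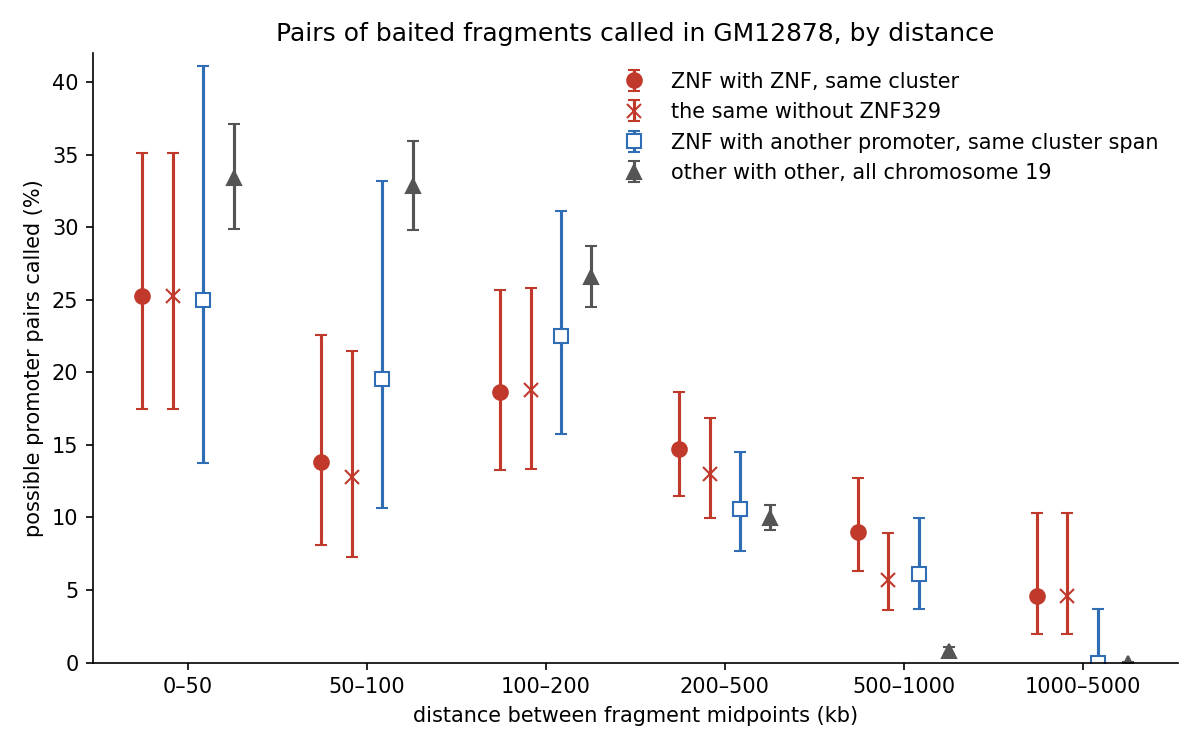
Share of possible promoter pairs that were called (vertical axis, %) by distance class (horizontal axis, kb), with 95% Wilson bars, for ZNF pairs of a cluster with and without ZNF329, ZNF with other promoters of the span, and other promoter pairs of chromosome 19. The ZNF pairs lie below the other pairs at 50 to 100 kb (13.8 against 32.8%) and above them at 500 to 1000 kb (9.0 against 0.796%). Pairs of a ZNF and another promoter of the span lie at 19.6% and 6.09% in these classes.

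Contacts between ZNF promoters were mostly seen from a single end. Among called ZNF pairs whose fragments both had calls, 4 of 90 were called from both ends, 4.44% (1.74 to 10.9%). For pairs of a ZNF and another promoter the figure was 7 of 155, 4.52%, and for pairs of other promoters it was 194 of 1364, 14.2% (12.5 to 16.2%). Of the 157 ZNF to ZNF calls, 132 had under 20 reads.

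Reads from near-identical gene copies can be placed on the wrong copy, so the fragments of each pair were compared by alignment. Likeness of either fragment to fragments outside the pair was not examined, so misplaced reads of that kind were not tested. Just 6 of the 1122 possible ZNF pairs of a cluster shared a stretch of 100 bp or more that aligned at 95% identity or above, and 0 of these 6 were called. None of the 157 calls between ZNF promoters and none of the 155 calls to unbaited fragments joined fragments that shared such an alignment, and 1 of the 136 calls to other promoters did.

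The ZNF460 to ZNF324 cluster, the largest, held 25 calling baits with 69 calls, of which 38 went to ZNF promoters, 55.1%. Its hub was the fragment of ZNF329, chr19:58660703-58668405, 7703 bp long with 48.7% GC. ZNF329 made no listed call of its own but was reached by 25 baits, against a median of 1 for listed baited fragments of the chromosome, and only DMKN, with 26, was reached by more. The callers included 20 of the 25 calling ZNF baits of the cluster, 80.0% (60.9 to 91.1%), and 4 of the 5 other baits of the span. The 5 other baits were those of VN1R1, ZIK1, C19orf18, ZSCAN1 and ZSCAN22. Of these, ZIK1, ZSCAN1 and ZSCAN22 are zinc finger genes outside the naming rule. The fragment was thus also reached by promoters outside the naming rule, but these are not all unrelated genes.

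The 20 ZNF calls to ZNF329 came from 92.9 to 875 kb away, with a median of 532 kb, and had from 6 to 28 reads with a median of 12. Their scores ran from 5.12 for ZNF211 to 16.19 for ZNF416, with a median of 6.74. ZNF416 lies 577 kb away and gave 18 reads, and its bait is shared with the zinc finger gene ZIK1. ZNF324 lies 313 kb away on the far side and gave 12 reads and a score of 13.85. ZNF460, the most distant, gave 6 reads and a score of 6.24 over 875 kb. None of these pairs shared an alignment. In the same cluster ZNF606 was reached by 5 ZNF baits of the cluster and ZNF749 by 5.

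**Figure D4:**
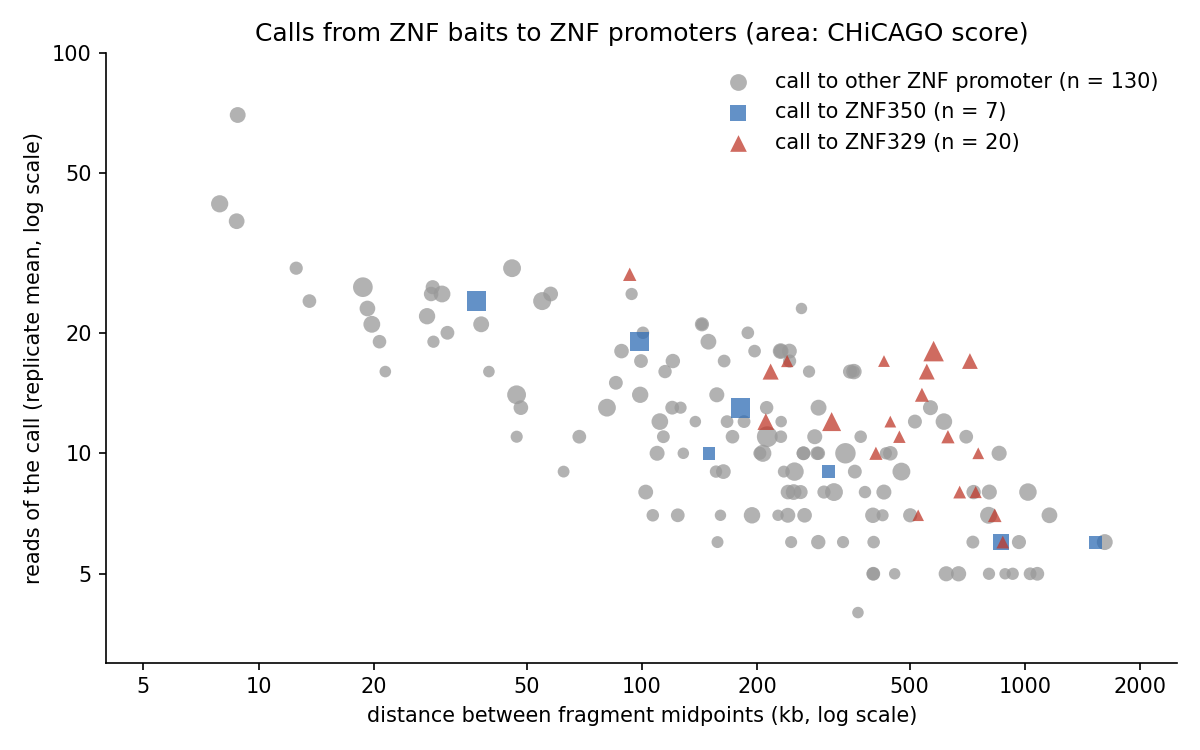
Reads (vertical axis, log scale) against distance (horizontal axis, kb, log scale) for the 157 calls from ZNF baits to ZNF promoters, with marker area scaled to the CHiCAGO score. Calls to ZNF329 (red) lie between 92.9 and 875 kb with 6 to 28 reads, and calls to ZNF350 (blue) between 37.0 and 1531 kb.

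In the ZNF175 to ZNF331 cluster, 22 of 36 calls went to ZNF promoters, 61.1%, the highest share among the 9 clusters. The fragment of ZNF350, chr19:52489558-52496180, was reached by 7 of the 14 calling ZNF baits of the cluster, 50% (26.8 to 73.2%). Of the 7 other baits of the span, 0 reached it (0 to 35.4%). These intervals overlap, and the counts were not matched for the distance of each bait from ZNF350. They therefore do not show a preference for ZNF baits. ZNF350, also known as ZBRK1, is a KRAB zinc finger repressor, and the fragment also holds part of the long coding exon of its neighbour ZNF615. The calls came from ZNF836 (181 kb, 13 reads, score 15.04), ZNF614 (37.0 kb, 24 reads, 14.84) and ZNF577 (98.4 kb, 19 reads, 14.38), and from 4 baits with lower scores. The most distant was ZNF331, a gene that is imprinted in many tissues, whose single call spanned 1531 kb with 6 reads and a score of 6.48. ZNF160 in the same cluster was reached by 5 ZNF baits from 249 to 1077 kb. Neither ZNF350 nor ZNF160 had a call of its own.

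The ZNF575 to ZNF229 cluster had 18 calling baits, 87 calls and the highest number of called pairs after the largest cluster, 35 of 170, 20.6% (15.2 to 27.3%). ZNF224, a KRAB repressor gene, called ZNF284 18.7 kb away with 26 reads and a score of 14.89. ZNF284 was reached by 5 ZNF baits, among them ZNF283, with 9 reads and a score of 13.04 over 250 kb, and ZNF225 was also reached by 5. ZNF428 made 10 calls with 17 to 74 reads, of which 9 ended on unbaited fragments. Its highest score, 11.07 with 28 reads, was to a fragment in KCNN4, the gene of a calcium-activated potassium channel of lymphocytes.

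The ZNF653 to ZNF490 cluster, with 15 baits and 81 calls, had 27 of 136 possible pairs called, 19.9%. ZNF20 called ZNF700 and ZNF763, which share a fragment, 212 kb away with 11 reads and a score of 16.64, the highest between ZNF promoters. It also called ZNF491 (340 kb, 10 reads, 16.05), ZNF878, ZNF433, ZNF823 and ZNF441, so that 6 of its 9 calls were to ZNF promoters, all to the same side. ZNF433, 99.0 kb from ZNF20, behaved differently, with 20 calls, the most of any ZNF bait, of which 18 ended on unbaited fragments. The nearest, over the long coding exon of ZNF878 at chr19:12155576-12157059, had 105 reads and a score of 8.37. A run of adjoining fragments in and around ZNF709 425 to 443 kb away had 11 to 20 reads, with a top score of 13.62. ZNF44, a target of 5 ZNF baits, was its single ZNF promoter, with 23 reads and a score of 5.03.

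**Figure D5:**
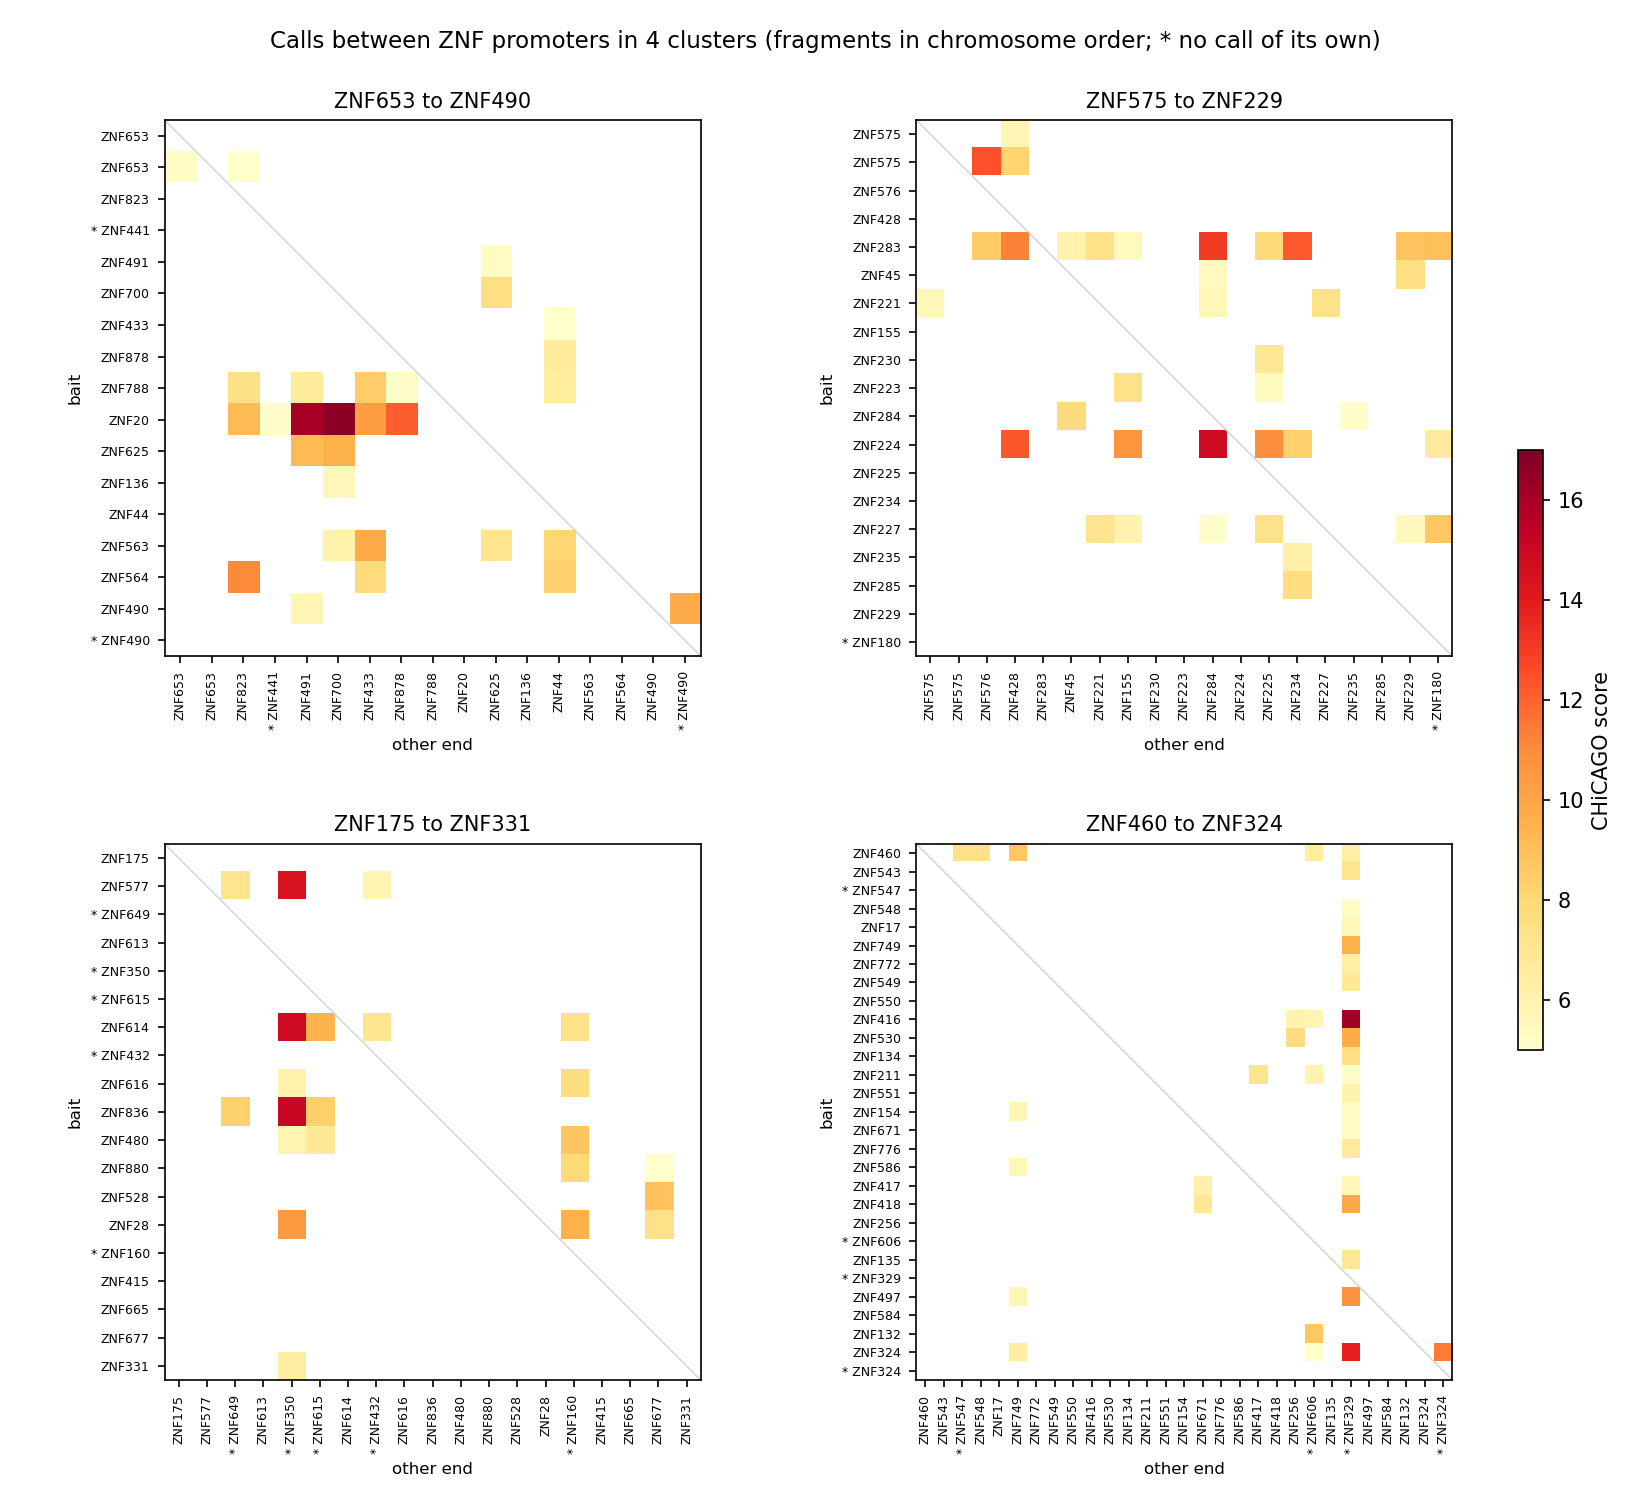
Calls between ZNF promoters in 4 clusters, with baits as rows and other ends as columns in chromosome order, coloured by CHiCAGO score from 5 to 17, and with a star for fragments that made no call of their own. ZNF329 and ZNF350 appear as filled columns, with 20 and 7 ZNF callers, and ZNF20 and ZNF283 as filled rows, with 6 and 10 ZNF targets.

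The other clusters were smaller or had fewer contacts between ZNF promoters. In ZNF146 to ZNF607, 12 of 26 calls were to ZNF promoters, 46.2%, and the top pair joined the bait of ZNF146 and ZNF565 to that of ZNF383 over 1018 kb with 8 reads and a score of 11.78. ZNF585A made 4 calls, 1 of them to ZFP82, 755 kb away. In ZNF628 to ZNF835, 9 of 38 calls were to ZNF promoters, 23.7%, and the top pair, ZNF835 and ZNF667, had 7 reads and a score of 10.41 over 194 kb. ZNF784 made 9 calls, all to promoters and 8 of them to promoters of genes other than ZNF genes, among them TNNT1, the slow skeletal troponin T gene, and UBE2S, a ubiquitin-conjugating enzyme gene.

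In ZNF558 to ZNF846, 4 of 22 calls were to ZNF promoters, 18.2%, the best of them from ZNF561 to ZNF846 with 19 reads and a score of 9.59. ZNF558 called MBD3L1, 23.0 kb away, with 25 reads and a score of 28.29, the highest score of all ZNF calls, and its other 5 calls went to ACTL9, MUC16 and promoters of the olfactory receptor family. In ZNF555 to ZNF77, 3 of 29 calls were to ZNF promoters, the best from ZNF57 to ZNF77 with 29 reads and a score of 12.24. All 14 calls of ZNF77 were to unbaited fragments, with 15 to 78 reads. In ZNF302 to ZNF792, with 3 baits, ZNF792 made 10 calls. It reached ZNF30 with 14 reads and a score of 13.61, and, on the other side, FXYD3 with 11 reads and a score of 15.7.

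The 12 scattered baits made 45 calls, of which 1 went to a ZNF promoter. The bait of ZNF526, which also holds the DEDD2 promoter, made 16 of them, with 12 to 29 reads, and 15 of these ended on unbaited fragments. Of these fragments, 10 lay in POU2F2, which encodes the B cell transcription factor OCT2, at 44.8 to 116 kb. The bait of ZNF574 and GRIK5, the nearest with a ZNF symbol, called the POU2F2 promoter itself, 118 kb away with 16 reads and a score of 9.37.

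Promoters outside the ZNF family were reached by several ZNF baits as well. Those with at least 4 ZNF callers were picked after their values were seen. The fragment of DHPS, the deoxyhypusine synthase gene, and its neighbours was called by 6 baits of the ZNF653 to ZNF490 cluster with 5 to 27 reads. IRGC was called by 5 baits of the ZNF575 to ZNF229 cluster with 9 to 37 reads and scores of 5.88 to 20.84. USP29, VN1R1, ZSCAN18 and the pseudogene OR7D1P each had 4 ZNF callers, as did a fragment with a small RNA pseudogene.

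Unbaited targets were looked up in the annotation. Of the 1951 unbaited fragments inside the 9 spans, 78 were called by a ZNF bait, 4.00%. The fragments that overlap the longest coding exon of a ZNF gene, where the zinc finger array is usually encoded, were called in 19 of 360 cases, 5.28% (3.40 to 8.10%). The rest of ZNF genes gave 32 of 825, 3.88%, other coding genes 9 of 331, 2.72%, and fragments without a coding gene 18 of 435, 4.14%. These intervals overlap, so no class of fragment stood apart at this depth.

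Most unbaited targets had a single ZNF caller. Of the 122 distinct fragments, 99 were called by 1 ZNF bait, 15 by 2, 6 by 3 and 2 by 4. A fragment in ZNF709, chr19:12584984-12591178, was called by ZNF491, ZNF433, ZNF878 and ZNF44 from 178 to 679.6 kb away with 8 to 20 reads. No bait without a ZNF symbol called it. A fragment in ZNF383, chr19:37726761-37730425, was called by ZNF529, ZNF585A, ZNF607 and the bait of ZNF383 and ZNF585B with 5 to 59 reads. It was also called by 2 baits without a ZNF symbol. In the ZNF555 to ZNF77 cluster, ZNF555, ZNF57 and ZNF77 all called the fragment over the long exon of ZNF77, with 17 to 78 reads. That fragment was also called by 1 bait without a ZNF symbol.

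Related genes outside the naming rule were listed as well. Of 16 other zinc finger genes of chromosome 19, from the ZFP, ZIM, ZIK and ZSCAN families with PEG3 and MZF1, 9 stood on a calling bait, 6 had a call to a ZNF promoter, 6 were reached by a ZNF bait and 5 were not listed. ZSCAN18, listed only as another end, was reached by ZNF17, ZNF211, ZNF154 and ZNF497. MZF1, a myeloid zinc finger gene, was reached by 3 ZNF baits, and ZNF324 called it with 26 reads and a score of 17.93. The bait that holds TRIM28, the corepressor gene, also holds CHMP2A and UBE2M. It made 1 call, with 53 reads, to an unbaited fragment in ZBTB45, and was reached by ZNF324 with 17 reads and a score of 10.02.

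Not every ZNF gene of the chromosome took part. Of 249 annotated coding ZNF genes, 127 stood on a calling bait, 51.0% (44.8 to 57.2%), 20 were listed only as other ends and 102 were in neither class. Among the 1231 other coding genes of the chromosome, 66.0% stood on a calling bait. Few genes made calls between ZNF14 and the centromere, chr19:19821281-24631783. There, 2 of 36 ZNF genes stood on a calling bait, 5.56% (1.54 to 18.1%), and 0 of 3 other coding genes, against 125 of 213 ZNF genes on the rest of the chromosome, 58.7%. ZNF14 made 1 call, to an unbaited fragment in ZNF93 228 kb away with 11 reads, and ZNF85 made the call to ZNF714. ZNF91, a repressor of SVA and L1 elements that lies in this region, and ZNF568 were not listed. A promoter that was captured without a call and a promoter that was not captured cannot be told apart from the list.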

How the data were processed

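Promoter CHi-C of GM12878 (3 biological replicates) was used. The mESC and Hi-C data of the same series were not used here. The authors mapped read pairs to hg19 with HiCUP, which removed artefacts and duplicates (the submitters' processing notes name Bowtie 1.1.0), discarded pairs without a baited end, and called the replicates jointly with CHiCAGO. The deposited score of each call is a soft-thresholded negative log of the weighted p-value, and the read count deposited by the authors beside it is a weighted, rounded replicate mean, not a raw count. The lists hold no depth per replicate, and the number of calls sets the width of the intervals.

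Calls, listed from each calling end, were read with Python 3.11.15 (pandas 2.3.3, scipy 1.17.1). Baits on chromosome 19 with a symbol of ZNF and digits were members. Neighbouring ZNF baits within 500 kb formed clusters, and spans run from the first to the last bait. Distances were taken between fragment midpoints. All 2062 listed chromosome 19 fragments matched the HindIII digest of hg19, and genes were taken from GENCODE annotation of that build. Possible pairs were pairs of the 914 listed baited fragments that are not adjacent, including 75 without a call of their own. Such fragments entered the list through a call, which raises the shares. They made up 25 of the 143 listed ZNF fragments, a larger part than the 75 of 914, so shares of ZNF pairs can be raised more. Fragments were aligned with blastn 2.17.0. Shares carry Wilson intervals, means exact Poisson intervals, medians order-statistic intervals and counts of 0 a limit of 3 counts. Adjacent fragments can share a contact, so their calls are not independent. The reading of calls and the counting of pairs were tested on simulated data.

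The genes named are the 10 ZNF baits with the most calls, the top bait, top pair and most shared unbaited fragment of each cluster, the 10 highest scoring ZNF pairs, pairs between clusters, ZNF91, ZNF331, ZNF568 and TRIM28. Others, such as hubs and examples, were named after their values were seen. The members and lists were chosen with earlier results of these data known.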

Additional observations from a re-analysis of the deposited data

How the results depend on the processing

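The 4 main values were 3.80 calls per ZNF bait, a median distance of 225 kb, 35.0% of calls to a ZNF promoter and 13.5% of possible ZNF pairs of a cluster called. Of 24 values under alternatives, 14 stayed within the interval of the main value and 10 lay outside it. With a score of at least 10, the values were 0.508 calls per bait, 151 kb, 46.7% and 2.50%. With baits on which every symbol is ZNF, they were 3.39 calls per bait, 28.6% and 16.2%. Adding ZFP, ZIM, ZIK, ZSCAN, ZKSCAN and PEG3 baits gave 9.51% of pairs called, a cluster gap of 1 Mb gave 10.2% and one of 250 kb gave 16.7%. Fewer calls at the higher score and more distant pairs at the wider gap follow from how these alternatives are built, and otherwise the cause was not tested. Leaving out the ZNF329 fragment (3.63 calls per bait, 216 kb, 32.0% and 12.0%) and using calling baits only (11.8% of pairs) were chosen after seeing the data. The calls were made on the replicates together, so leaving out a replicate was not possible. Most calls between ZNF promoters rest on under 20 reads, which limits what can be said of contacts beyond 500 kb.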
